A study of Mus musculus with 6 samples.

Results

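The genes described here are 10 genes of the NRF2 pathway and of the cell's thiol antioxidant enzymes, found by their symbols among the 21847 genes of the deposited count table. They were measured by RNA sequencing in mouse spleen cells that had spent 3 days with human cord tissue mesenchymal stromal cells (MSCs), a culture-grown connective tissue cell. The MSCs carried Qtracker, a quantum dot that fluoresces, and T cell-depleted splenocytes were laid over them. Cells bearing CD11b, a myeloid surface integrin, were then sorted by whether they held the dye. Qtracker positive cells, which the series records as having engulfed MSCs, gave 3 libraries, and Qtracker negative cells from the same co-cultures gave 3. All 6 libraries therefore come from cells exposed to MSCs, and no library without MSCs was analysed here. Mouse strain, age and number of animals are not given in the sources used here, and the labels write the gate as CD11b+ Ly6G- in one place and as CD11b+Ly6C- in another. The libraries are numbered 1 to 3 in each group, and the series describes the triplicates as biological and paired.

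NRF2, encoded by Nfe2l2, is the transcription factor that switches on genes for antioxidant and detoxifying enzymes. In resting cells KEAP1 binds NRF2 and hands it to a ubiquitin ligase for destruction, and oxidants or electrophiles that modify cysteines of KEAP1 stop this, so that NRF2 protein builds up. NRF2 then pairs with small MAF proteins on the antioxidant response element. Its control is largely of the protein, so the RNA level of Nfe2l2 is not a measure of NRF2 activity. The enzymes fall into a glutathione arm and a thioredoxin arm, which both draw on NADPH to keep thiols reduced, and phagocytes use both while they produce and meet oxidants.

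The element's core, TGACNNNGC, was searched on both strands of the RefSeq promoter windows of GRCm38.p6, which run from 250 bases before to 50 bases after each annotated start. Windows were present for 8 of the 10 genes. Gclc and Gsr were not among them. The core was found for 5 of these 8 genes, against 3781 of all 27025 genes with a window (14.0%). In the further lists used below, it was found for 4 of 15 other NRF2 targets and 3 of 10 NRF2 regulators with a window. It was also found for 1 of 13 other thioredoxin and peroxiredoxin genes, 3 of 17 glutathione genes and 1 of 3 superoxide and peroxide enzymes. Among the 8 genes, Txnrd1 has 3 windows, of which 1 holds the core, and the other 7 have 1 window each. The matches are shown because this element ties the enzymes to NRF2. Each line is read along the strand that carries the core, with the core in capitals and 10 bases on either side.
Prdx1: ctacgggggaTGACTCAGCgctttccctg
Gclm: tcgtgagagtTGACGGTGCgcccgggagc
Nfe2l2: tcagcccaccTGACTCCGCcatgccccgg
Txnrd1: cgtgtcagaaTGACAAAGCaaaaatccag
Srxn1: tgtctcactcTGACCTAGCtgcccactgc
The Prdx1 stretch is chr4:116685456-116685484 on the minus strand, with the core's nearest base 125 bases upstream of the start. For Gclm it is chr3:122245413-122245441 on the minus strand, 126 bases upstream. For Nfe2l2 it is chr2:75704885-75704913 on the minus strand, 232 bases upstream, and for Txnrd1 chr10:82859104-82859132 on the minus strand, 84 bases upstream of that start. In Srxn1 the core lies downstream, from base 29 of the transcript, at chr2:152105542-152105570 on the minus strand. Keap1, Nqo1 and Txn1 had no match in their windows. A match is a description of these letters and not a measured binding site, and a missing match speaks only of this window.

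The libraries held 33943090 to 55506993 estimated counts. Levels are given in CPM, the count scaled to library size with TMM factors. Of 14605 genes tested with edgeR's quasi-likelihood test and replicate number as a block, 2707 rose and 2384 fell in Qtracker positive cells (34.9% together, Benjamini-Hochberg adjusted p under 0.05). Scaling by library totals alone gave 1572 that rose and 3316 that fell. The labels call all these cells splenic macrophages, and markers of several cell types moved with the groups. The 8 macrophage markers summed to 8474 to 11662 CPM in positive libraries and 321.1 to 1641 CPM in negative libraries, and 7 of them rose. The 10 neutrophil markers summed to 1327 to 1716 CPM in positive libraries. In the negative group they summed to 2469 CPM in replicate 1, 65132 CPM in replicate 2 and 65359 CPM in replicate 3, and 8 of the 10 fell, all but Mmp8 and Csf3r. Ly6G is a neutrophil surface marker. Its gene Ly6g had 1.33, 25.9 and 29.2 CPM in negative replicates 1, 2 and 3, and 0 to 0.38 CPM in positive libraries. How the sort gate bears on the neutrophil sums was not tested. The 7 B cell markers summed to 856.5 to 942.4 CPM in positive libraries, against 21769 CPM in negative replicate 1 and 10059 and 10029 CPM in negative replicates 2 and 3, and all 7 fell. The 6 T cell markers summed to 4.25 to 8.75 CPM in positive and 23.9 to 112.9 CPM in negative libraries, the 6 NK cell markers to 0.866 to 4.55 CPM in positive and 13.8 to 88.7 CPM in negative libraries, and all 12 fell. Among the 4 eosinophil markers 2 rose and 2 fell, 2 of 5 proliferation markers fell, and none of the 3 tested erythroid markers passed. No marker in these lists was at 0 in all positive libraries. Negative replicate 1 thus stood apart from negative replicates 2 and 3, so the 10 genes are given library by library, with pair values except for pair 1 of Txnrd1. In such bulk samples, fewer cells of a type and less RNA per cell cannot be told apart.

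Of the 10 genes, 5 rose in Qtracker positive cells and 0 fell, where 18.5% of all tested genes rose and 16.3% fell. The 5 were Prdx1, Srxn1, Gclm, Nfe2l2 and Gclc, while Txnrd1, Txn1, Nqo1, Keap1 and Gsr did not pass. All 10 passed the filter on low counts. The median log2 fold change of the 10 was 1.23, or 1.09 without Txnrd1, against -0.01 over all tested genes. In 7 of the 10 every positive library lay above every negative library, which held for 30.0% of all tested genes. The 7 include Txnrd1, which is listed at 0 in negative replicate 1. Its negative replicates 2 and 3 (40.1 and 46.1 CPM) also lay below its lowest positive library (67.0 CPM). The number called depended on which replicates were kept. Without replicate 1 edgeR called 8, of which 7 rose and 1 fell, in a setting where it called 72.9% of all tested genes (37.1% rose and 35.8% fell). Without replicate 2 it called 1 of the 10, Srxn1, and 311 genes in all. Without replicate 3 edgeR called 0 of all genes, where an unadjusted p under 0.05 was reached by 5 of the 10 and by 4209 of 14803 genes overall. The calls there were 4 of the 10 by DESeq2 and 2 by limma-voom, whose totals over all genes are given in the closing section.

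**Figure D1:**
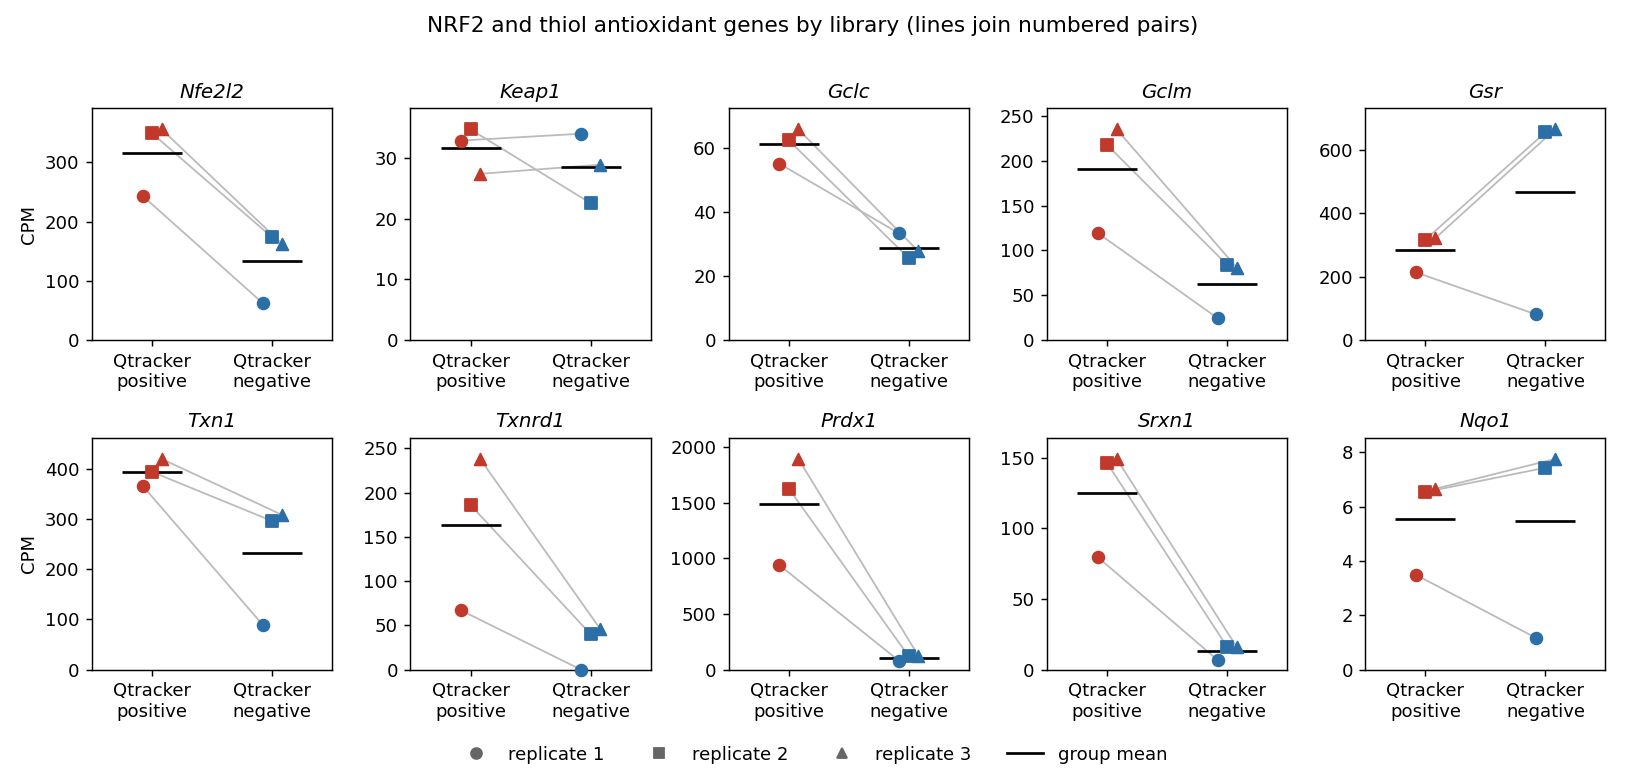
Level of each gene in CPM (linear axes from 0, a separate scale per gene) in Qtracker positive and Qtracker negative libraries, with 1 point per library, grey lines joining same-numbered pairs and black bars at group means (n = 3, none for the Txnrd1 negative group, where 1 library is listed at 0). Prdx1, Srxn1, Gclm, Nfe2l2 and Gclc lie above the negative libraries in every pair, and Gsr lies above in pair 1 and below in pairs 2 and 3.

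The regulators differed from each other. Nfe2l2, on chromosome 2 from 75675513 to 75704641 (mm10), stood at 243.6, 349 and 355.8 CPM in Qtracker positive replicates 1, 2 and 3, against 62.6, 173.4 and 163 CPM in negative replicates 1, 2 and 3. The groups did not overlap, and replicate 1 was the lowest library in each. The log2 fold change was 1.36 ± 0.25 (standard error, edgeR adjusted p = 0.0292), and pairs 1, 2 and 3 differed by 1.96, 1.01 and 1.13. The call was lost without the replicate block (edgeR adjusted p = 0.0518). In fits without replicate 2, without replicate 3 or with replicates 2 and 3 summed, edgeR and limma-voom also lost it and DESeq2 kept it. Without replicate 1, and so without the negative library poor in neutrophil and macrophage markers, the change was 1.08 ± 0.05. This small error rests on replicates 2 and 3 alone, in a setting that called 72.9% of all tested genes.

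Keap1, the NRF2 inhibitor, on chromosome 9 from 21229730 to 21239361, had 32.9, 34.8 and 27.4 CPM in positive replicates 1, 2 and 3, and 34.1, 22.6 and 29.0 CPM in negative replicates 1, 2 and 3. Positive replicate 3 lay below negative replicates 1 and 3, so the groups overlapped. Its log2 fold change of 0.16 ± 0.20 did not pass (edgeR adjusted p = 0.54), and the value was -0.049, 0.62 and -0.077 in pairs 1, 2 and 3. Its sign turned with library totals alone (-0.19) and without replicate 2 (-0.059).

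In the glutathione arm, both subunits of glutamate-cysteine ligase rose. This enzyme joins glutamate and cysteine in the limiting step of glutathione synthesis. Gclc, its catalytic subunit, on chromosome 9 from 77754535 to 77794485, had 55.0, 62.2 and 65.7 CPM in positive replicates 1, 2 and 3, and 33.2, 25.5 and 27.7 CPM in negative replicates 1, 2 and 3. Its positive and negative libraries were each within a narrow range and did not overlap. The log2 fold change was 1.09 ± 0.17 (edgeR adjusted p = 0.0211). Pair 1 had the smallest difference, 0.73, where pairs 2 and 3 had 1.29 and 1.25. With library totals alone the change was 0.74 and the call was lost (edgeR adjusted p = 0.0736). Nor was Gclc called by edgeR, DESeq2 or limma-voom without replicate 2, without replicate 3 or with replicates 2 and 3 summed.

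Gclm, the modifier subunit that raises the ligase's activity, on chromosome 3 from 122245557 to 122270732, had 119.6, 217.8 and 235.2 CPM in positive replicates 1, 2 and 3. In negative replicates 1, 2 and 3 it had 24.5, 83.9 and 80.9 CPM. Replicate 1 was again the lowest library of each group, and the groups did not overlap. The log2 fold change was 1.73 ± 0.24 (edgeR adjusted p = 0.0178), with 2.29, 1.38 and 1.54 in pairs 1, 2 and 3. A processed transcript on the opposite strand, Gm17494, overlaps the gene and had 38 to 111 counts per library, against 1068 to 11131 for Gclm.

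Gsr, glutathione reductase, turns oxidised glutathione back to its reduced form with NADPH. It lies on chromosome 8 from 33652523 to 33698163. It had 213.3, 316.4 and 320.3 CPM in positive replicates 1, 2 and 3, against 80.9, 654.7 and 663.7 CPM in negative replicates 1, 2 and 3. Negative replicate 1 was the lowest of the 6 libraries and negative replicates 2 and 3 were the highest. The difference was 1.40 in pair 1 but -1.05 in both of the other pairs, and the fitted change of -0.28 ± 0.64 did not pass (edgeR adjusted p = 0.754). Without replicate 1 it fell by 1.04 (edgeR adjusted p = 1.08e-05), in a setting that called 72.9% of all tested genes. The value turned positive without replicate 2 (0.18) and without replicate 3 (0.18). Within the negative group alone, several marker sums were also lowest in replicate 1. Negative replicates 1, 2 and 3 had 2469, 65132 and 65359 CPM of neutrophil markers, 321.1, 1641 and 1592 CPM of macrophage markers, and 313.4, 1120.0 and 1028.5 CPM of proliferation markers. The eosinophil sum was 24.0, 49.6 and 51.0 CPM and the erythroid sum 2.29, 8.04 and 9.60 CPM in the same libraries. In contrast, the B cell, T cell and NK cell sums were highest in replicate 1 of the negative group. In positive libraries the neutrophil sum (1327 to 1716 CPM) and the proliferation sum (114.3 to 162.8 CPM) lay below negative replicate 1. The macrophage sum (8474 to 11662 CPM) and the eosinophil sum (79.5 to 308.1 CPM) lay above it there, and the erythroid sum ran from 2.22 to 8.37 CPM. The part of these cells in the Gsr levels was not tested.

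The thioredoxin arm held the steepest rises. The macrophage markers had a median log2 fold change of 4.19, and the part of the cell mix in the rises of these antioxidant genes was not tested. Prdx1, peroxiredoxin 1, reduces hydrogen peroxide with a reactive cysteine, and lies on chromosome 4 from 116685544 to 116700822. It had 941.2, 1628 and 1895 CPM in positive replicates 1, 2 and 3, and 77.4, 118 and 122.7 CPM in negative replicates 1, 2 and 3. The lowest positive library was far above the highest negative library. The log2 fold change was 3.78 ± 0.19 (edgeR adjusted p = 0.00617), and the pairs were alike, with 3.60, 3.79 and 3.95.

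Srxn1, sulfiredoxin, restores peroxiredoxins whose cysteine has been over-oxidised. It lies on chromosome 2 from 152105516 to 152111376. Levels were 79.8, 146.2 and 149.2 CPM in positive replicates 1, 2 and 3, and 6.76, 16.1 and 15.9 CPM in negative replicates 1, 2 and 3. Replicate 1 was the lowest library in each group, and the groups did not overlap. The log2 fold change was 3.32 ± 0.14 (edgeR adjusted p = 0.00585), with 3.55, 3.18 and 3.22 in pairs 1, 2 and 3. Of the 10 genes it had the lowest p. Over the 20 settings tried, including those with fewer libraries, its change ran from 2.97 to 3.40 and that of Prdx1 from 3.43 to 3.88.

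Txn1, thioredoxin, passes electrons on to peroxiredoxins and other proteins. It lies on chromosome 4 from 57943373 to 57956411. It had 365.8, 393.2 and 419 CPM in positive replicates 1, 2 and 3, and 89.3, 295.5 and 308 CPM in negative replicates 1, 2 and 3. The groups did not overlap, but negative replicate 1 was far below negative replicates 2 and 3. The fitted log2 fold change of 0.95 ± 0.42 did not pass (edgeR adjusted p = 0.154), with 2.03, 0.41 and 0.44 in pairs 1, 2 and 3. Without replicate 1 it rose by 0.44 (edgeR adjusted p = 0.000289), in a setting that called 72.9% of all tested genes.

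Txnrd1, thioredoxin reductase 1, is the selenoprotein that recharges thioredoxin with NADPH. It lies on chromosome 10 from 82833951 to 82897712. The table lists it at 2535, 9138 and 11272 counts in positive replicates 1, 2 and 3, which are 67.0, 186.1 and 238.2 CPM. In negative replicate 1 it is listed at 0 counts, with 1793 counts (40.1 CPM) in negative replicate 2 and 2146 counts (46.1 CPM) in negative replicate 3. Every positive library was above every negative library. The log2 difference was 2.21 in pair 2 and 2.37 in pair 3, and no value is given for pair 1. The fitted change of 3.70 ± 1.87 did not pass (edgeR adjusted p = 0.194). Without replicate 1, and so without the library listed at 0, it rose by 2.30 ± 0.05 (edgeR adjusted p = 2.34e-06). That fit rests on replicates 2 and 3 alone, and it called 72.9% of all tested genes.

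Such isolated zeros were rare. Of 7459 genes with at least 500 counts in 5 or more libraries, a minimum chosen after the values were seen, 6 were listed at 0 in the remaining library. Negative replicate 1 held 3 of them, Txnrd1, Gab1 and Sirpb1b. Since the values are estimates that a program divides among transcripts, an isolated 0 may be a failed estimate, which was not tested. Eid3 overlaps Txnrd1 on the same strand in GENCODE M21 and was not in the table used here.

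Nqo1 encodes a quinone reductase widely used as a readout of NRF2. It lies on chromosome 8 from 107388225 to 107403206. It had 3.49, 6.54 and 6.66 CPM in positive replicates 1, 2 and 3, and 1.17, 7.43 and 7.76 CPM in negative replicates 1, 2 and 3. Negative replicate 1 was lowest and negative replicates 2 and 3 were highest, as for Gsr. Pairs 1, 2 and 3 differed by 1.54, -0.18 and -0.22, and the fitted change of 0.35 ± 0.47 did not pass (edgeR adjusted p = 0.585). It did not pass without replicate 1 either (-0.19 ± 0.11, edgeR adjusted p = 0.157), and this sign was opposite to that of the fit over all pairs. These levels rest on 51 to 361 counts per library.

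**Figure D2:**
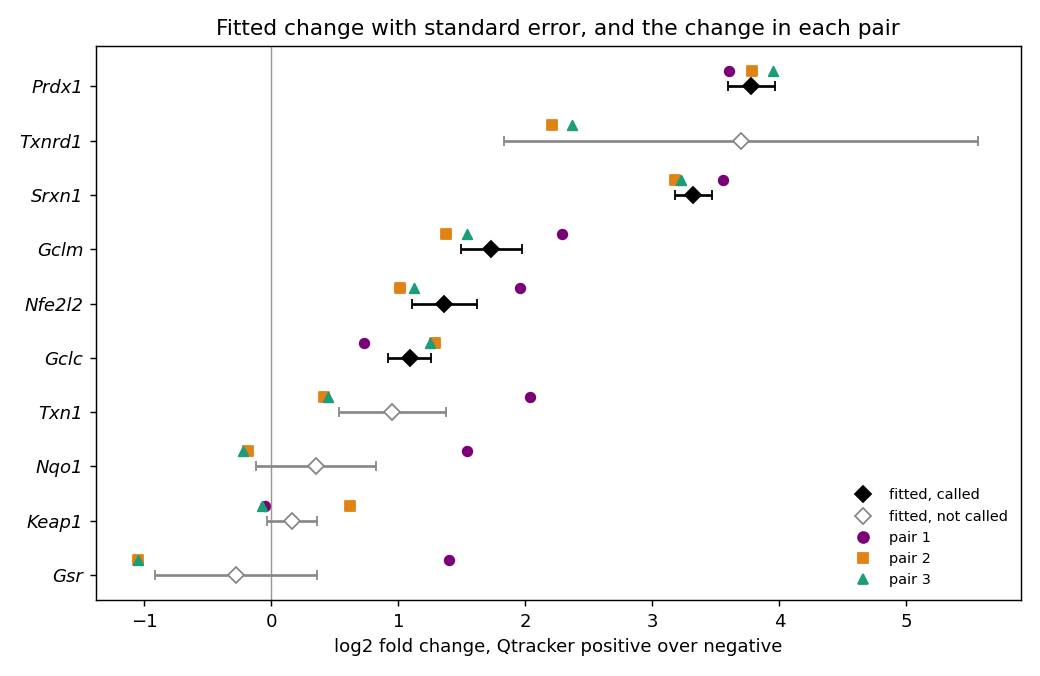
Log2 fold change, Qtracker positive over negative, for each gene. Diamonds are the edgeR fit with its standard error (filled where the adjusted p is under 0.05), and small symbols are the differences in pairs 1, 2 and 3. Prdx1 at 3.78 and Srxn1 at 3.32 have pairs close to the fit, Gsr and Nqo1 have pair 1 on the opposite side of 0 from pairs 2 and 3, and pair 1 of Txnrd1 is not drawn because 1 library is listed at 0.

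**Figure D3:**
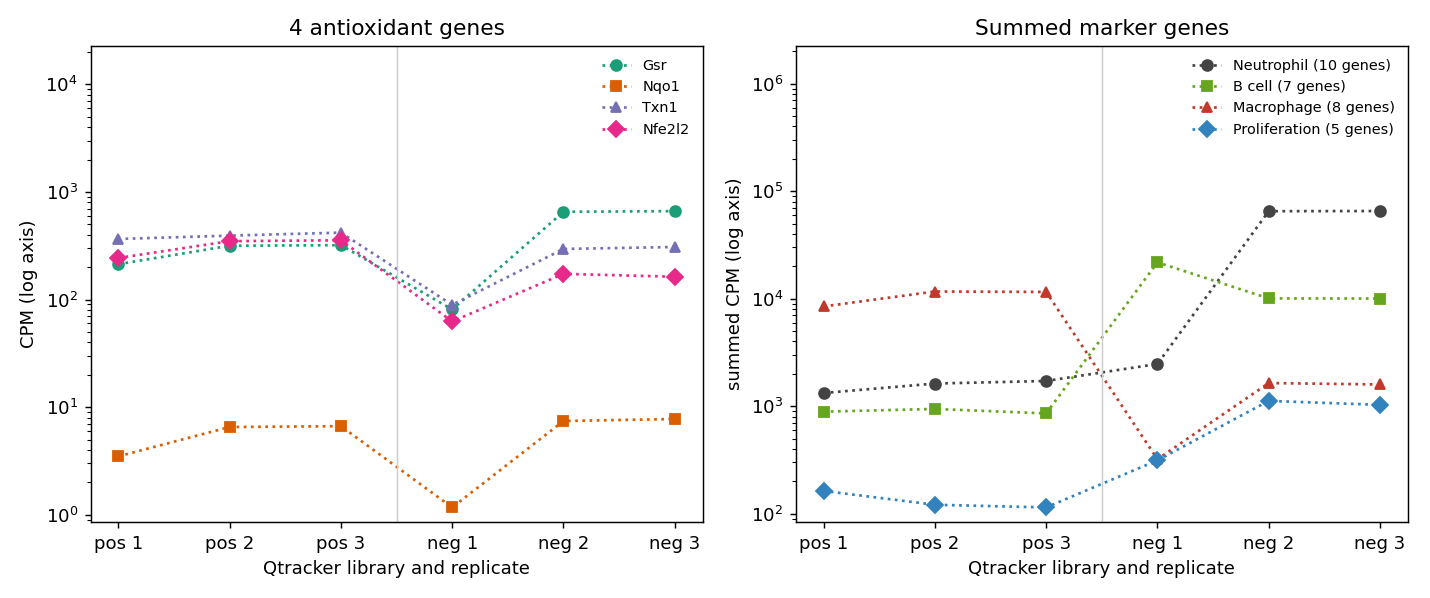
Level of Gsr, Nqo1, Txn1 and Nfe2l2 in CPM (left) and the summed CPM of neutrophil, B cell, macrophage and proliferation markers (right), both on log axes, in the 3 Qtracker positive and 3 Qtracker negative libraries. In negative replicate 1 the 4 genes are at their lowest, the neutrophil sum is 2469 CPM against 65132 and 65359 CPM in negative replicates 2 and 3, and the B cell sum is at its highest. Gclm, Prdx1, Srxn1 and Txnrd1, not drawn, are also lowest in that library. The neutrophil sum is 1327 to 1716 CPM in positive libraries, where the 4 genes are above that library.

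Per kilobase of exon, the order of the levels changed between the groups. In Qtracker positive libraries Prdx1 averaged 489 ± 162 CPM per kilobase (SD, n = 3) and Txn1 374 ± 25.3, with overlapping ranges. Gsr (103 ± 22.0) and Nfe2l2 (83.3 ± 16.6) followed, also overlapping, and then Srxn1 (44.4 ± 13.9), Gclm (30.3 ± 9.90), Txnrd1 (23.1 ± 12.4), Gclc (16.2 ± 1.44), Keap1 (6.76 ± 0.81) and Nqo1 (3.58 ± 1.16). Neighbours from Srxn1 to Gclc overlapped in range, while Txn1 was apart from Gsr, Nfe2l2 from Srxn1, Gclc from Keap1 and Keap1 from Nqo1. In negative libraries Txn1 averaged 219.7 ± 117 CPM per kilobase, Gsr 169 ± 121, Nfe2l2 35.0 ± 16.1 and Prdx1 34.9 ± 8.18, each overlapping with the next. Below Prdx1, and apart from it, were Gclm (10.03 ± 5.32), Gclc (7.64 ± 1.06), Keap1 (6.08 ± 1.22), Srxn1 (4.58 ± 1.89) and Nqo1 (3.51 ± 2.39), again each overlapping with the next. Txnrd1 ranged from the listed 0 to 6.51. Prdx1 thus had the highest mean in positive libraries, while Txn1, Gsr and Nfe2l2 had higher means than Prdx1 in negative libraries. The exon lengths are those of GENCODE M21, and the annotation behind the counts may differ.

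Some pairs of genes had similar profiles over the 6 libraries. By Euclidean distance of log2 CPM centred on each gene's mean, the nearest were Nfe2l2 and Gclm (0.61), Nfe2l2 and Txn1 (0.65), Prdx1 and Srxn1 (0.76), and Gsr and Nqo1 (0.86). Among 8516 other tested genes with a mean log2 CPM of at least 3, the profiles nearest to Prdx1 were Pdlim4 (0.55), Sulf2 (0.59) and Rxra (0.63). Those nearest to Srxn1 were Fam213b (0.16), Creg1 (0.31) and Il18bp (0.32). For Txnrd1 they were Gab1 (1.82) and Sirpb1b (3.22), which are listed at 0 in the same library, and Saa3 (4.29). These distances describe 6 libraries in 2 groups and carry no test.

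Other genes of the pathway were read from the same fit, in which 18.5% of all tested genes rose and 16.3% fell. Of 18 further NRF2 targets, 11 rose and 1 fell, with a median log2 fold change of 2.43, the highest among the 5 further pathway lists. The lists were chosen with earlier results of these data known, so this order of medians is a description only. Slc48a1, a transporter of heme out of lysosomes, had 409.1, 519.4 and 520.4 CPM in positive replicates 1, 2 and 3, and 55.3, 85.2 and 83.9 CPM in negative replicates 1, 2 and 3, a change of 2.71 ± 0.15 (edgeR adjusted p = 0.00643). Abcc1, an exporter of glutathione conjugates, averaged 340 ± 52.3 CPM in positive and 62.0 ± 2.20 CPM in negative libraries (SD, n = 3), a change of 2.44 ± 0.15 (edgeR adjusted p = 0.00692). Slc7a11, which imports cystine for glutathione synthesis, averaged 117 ± 28.1 CPM in positive and 8.96 ± 0.82 CPM in negative libraries, a change of 3.68 ± 0.24 (edgeR adjusted p = 0.00737). For these 3 genes the positive library was higher in every pair.

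The 18 targets also held genes that did not follow, named here after their values were seen. Ephx1, an epoxide hydrolase, was the 1 that fell (-2.54 ± 0.20, edgeR adjusted p = 0.00943). The NADPH-generating pentose phosphate genes G6pdx (-0.73, edgeR adjusted p = 0.504), Pgd (0.36, 0.654), Taldo1 (0.49, 0.24) and Tkt (-0.70, 0.383) did not pass. G6pdx had 239.2, 220.8 and 230.8 CPM in positive replicates 1, 2 and 3, against 95.2, 702.4 and 704.7 CPM in negative replicates 1, 2 and 3, the order seen for Gsr. Pairs 1, 2 and 3 differed by 1.89, -0.33 and -0.38 for Pgd, by 1.16, 0.16 and 0.15 for Taldo1, and by 0.77, -1.36 and -1.41 for Tkt. Hmox1, heme oxygenase, rose by 4.62 ± 0.54 (edgeR adjusted p = 0.0145), and the ferritin chains Fth1 and Ftl1 by 3.85 ± 0.46 (0.0149) and 3.26 ± 0.46 (0.019). Ferritin genes have processed copies in the genome, as does Txn1, so how reads were shared out makes their counts less certain.

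Among 12 regulators and partners of NRF2, 3 rose and 1 fell, with a median of 0.68, where 18.5% of all tested genes rose and 16.3% fell. Sqstm1, or p62, an autophagy receptor that competes with NRF2 for KEAP1, averaged 929 ± 182 CPM in positive and 206 ± 18.9 CPM in negative libraries (SD, n = 3). Its change was 2.16 ± 0.16 (edgeR adjusted p = 0.00842), with 2.32, 2.09 and 2.06 in pairs 1, 2 and 3. Maff, a small MAF partner, rose by 1.29 ± 0.23 at a low level of 6.40 ± 3.64 CPM in positive and 2.46 ± 0.85 CPM in negative libraries, a call lost without the block (edgeR adjusted p = 0.0618). Rbx1, a subunit of the ligase that ubiquitinates NRF2, rose by 0.81 ± 0.19 (edgeR adjusted p = 0.0451), and missed the threshold with relative log expression factors (0.050003), library totals alone (0.0837) and the stricter filter (0.0501). Bach2, named as the 1 that fell, changed by -2.65 ± 0.66 (edgeR adjusted p = 0.0498), and it had 223.4 CPM in negative replicate 1, where the B cell markers were also highest. Bach2 is a repressor known for its role in B cells, and the part of B cells in its change was not tested.

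In 16 other thioredoxin and peroxiredoxin genes 6 rose and 1 fell, with a median of 0.68, against 18.5% and 16.3% of all tested genes. The endoplasmic reticulum peroxiredoxin Prdx4 rose by 1.60 ± 0.11 (edgeR adjusted p = 0.00785), the cytosolic Prdx2 by 1.04 ± 0.11 (0.0119) and the mitochondrial thioredoxin Txn2 by 0.71 ± 0.11 (0.0212). Their pairs were close together, with 1.57, 1.57 and 1.65 for Prdx4. Txn2 missed the threshold with library totals alone (edgeR adjusted p = 0.0809). The 1 that fell was Txnip, an inhibitor of thioredoxin, with 396 ± 35.6 CPM in positive and 600 ± 74.5 CPM in negative libraries (-0.60 ± 0.14, edgeR adjusted p = 0.0444). None of these changes was as large as that of Prdx1.

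Of 18 tested genes for glutathione synthesis, use and breakdown 9 rose and 0 fell, with a median of 0.60. Over all tested genes 18.5% rose and 16.3% fell. Gpx3, a secreted glutathione peroxidase, averaged 142 ± 39.7 CPM in positive and 23.4 ± 11.9 CPM in negative libraries, a change of 2.73 ± 0.25 (edgeR adjusted p = 0.0104). Slc3a2, the heavy chain that pairs with Slc7a11, rose by 1.44 ± 0.13 and the glutaredoxin Glrx3 by 1.28 ± 0.14. Of 4 superoxide and hydrogen peroxide enzymes 2 rose and 1 fell, with a median of 0.84. Mitochondrial Sod2 rose by 1.48 ± 0.11 (edgeR adjusted p = 0.0086) and catalase, Cat, by 1.68 ± 0.41 (0.0475), with 0.65, 2.15 and 2.20 in pairs 1, 2 and 3. The Cat call was lost with upper quartile factors (edgeR adjusted p = 0.0687), library totals alone (0.0961) and the stricter filter (0.0514). Sod3, the extracellular enzyme, fell by 2.84 at a level of 0.189 ± 0.111 CPM in positive and 1.76 ± 1.89 CPM in negative libraries.

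**Figure D4:**
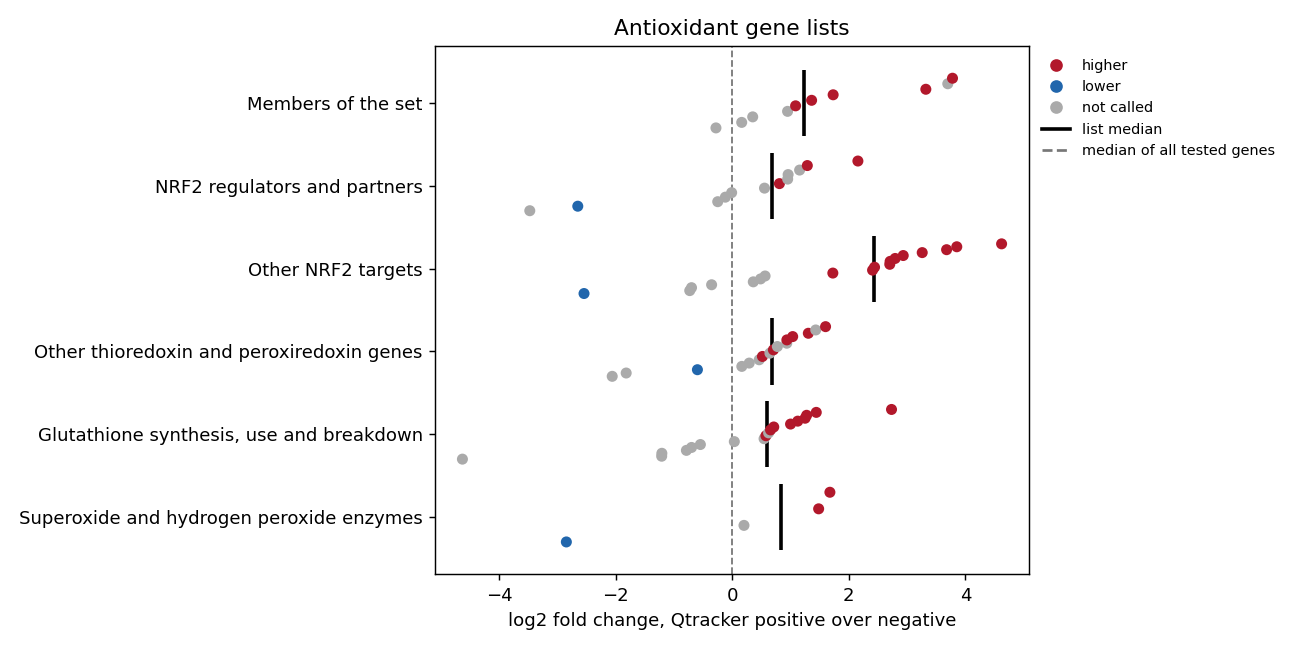
Log2 fold change, Qtracker positive over negative, of each tested gene in the set of 10 and in 5 further lists, with 1 point per gene coloured by the edgeR call, black bars at list medians and a dashed line at the median of all tested genes (-0.01). The list medians run from 0.60 for glutathione genes to 2.43 for other NRF2 targets, and every list but the glutathione list and the set of 10 holds a gene that fell.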

How the data were processed

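The authors deposited a table of estimated counts per gene as whole numbers, and FastQC, Salmon and mm10 are named, without versions, per the submitters' processing notes. Salmon gives fractional estimates, so these deposited expected counts had been rounded. The library kit was stranded, per the labels' protocols. Whether counting used strand, which annotation it used and how human reads were handled are not given in the sources used here. A second table deposited by the authors holds a normalized signal, whose ratio to the count varies between genes and libraries by a formula that is not stated. It served only as an alternative, as log2(value + 1) in limma.

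Symbols were filled for 5210 genes from GENCODE M21. Genes were filtered with filterByExpr (minimum count 10, total 15), scaled by TMM and tested with edgeR 4.0.16 in R 4.3.3, with standard errors derived from the F statistic. CPM used TMM-scaled totals and a prior count of 2 for log2 values. The edgeR fit was also run on simulated counts with planted group changes. Those counts held no replicate effect and no outlying library, so that run checks the code and not the calls made here. Alternatives covered other scalings and filters, DESeq2 1.42.0, limma-voom 3.58.1, no block, fewer replicates, and replicates 2 and 3 summed. Figures used matplotlib 3.10.9.

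The replicate block comes from the series' design text. After subtracting group means, the correlation across genes within pairs 1, 2 and 3 was 0.198, 0.0769 and 0.158, and positive replicate 2 was closer to negative replicate 3 (0.116) than to its own partner. The pairing thus rests on the design text. Replicates 2 and 3 of a group were close in several marker sums. Neutrophil sums were 65132 and 65359 CPM in the negative group, and macrophage sums 11662 and 11548 CPM in the positive group. The eosinophil sums of the positive group were less close (308.1 and 241.1 CPM). How independent replicates 2 and 3 are was not tested. No label names an animal for a library. The p-values therefore reflect variation among these 6 libraries, part of which may be technical.

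The members and lists were chosen with earlier results of these data known. Beyond the 10 genes, the 3 lowest p-values of each list and the 3 nearest profiles of the 3 members with the largest changes were named. Hmox1, Fth1, Ftl1, Ephx1, G6pdx, Pgd, Taldo1, Tkt, Bach2, Txnip and the genes with isolated zeros were named outside that rule, after their values were seen.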

Additional observations from a re-analysis of the deposited data

How the results depend on the processing

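Scaling, filters, DESeq2, limma-voom and the authors' normalized table left 4 (library totals alone) or 5 of the 10 genes called. For the other scalings, the filters and the normalized table no total over all genes is given here. Those member counts therefore cannot be read against a share of all genes. The main edgeR fit called 34.9% of all tested genes, and DESeq2 and limma-voom each called more, with totals given below. Without the replicate block 4 were called (Nfe2l2 was lost, adjusted p = 0.0518) and 5969 genes in all. Leaving out a replicate gave 0 to 8 called members and 0 to 10890 called genes by edgeR. Other tools without replicate 2 or 3 were added after the data were seen. DESeq2 called 4 members and 3226 to 3294 genes, and limma-voom 2 to 3 members and 1167 to 1625 genes. With replicates 2 and 3 summed edgeR called 0 members and 0 genes, with 5 members and 4488 of 15570 genes at an unadjusted p under 0.05. In that setting DESeq2 called 4 and 3489, and limma-voom 3 and 1405. These settings hold fewer libraries, and no other cause was tested.

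Keap1, Nqo1 and Gsr, which did not pass in the main test, changed sign in some settings. Keap1 was at -0.19 with library totals alone, where the median of all genes was -0.36 (-0.15 with upper quartile factors). Without replicate 2 it was at -0.059 by edgeR, -0.087 by DESeq2 and -0.059 by limma-voom, and without replicate 3 at 0.29 by edgeR. Nqo1 was at -0.19 without replicate 1 and 0.68 without replicate 3. Gsr was at -1.04 without replicate 1 (edgeR), at 0.18, 0.15 and 0.34 without replicate 2 (edgeR, DESeq2 and limma-voom), at 0.18, 0.15 and 0.33 without replicate 3, and at 0.19, 0.16 and 0.42 with replicates 2 and 3 summed.

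Some list counts moved by over 1.5 times. Of the NRF2 regulators, 4 were called in the main test and 8 by DESeq2 and by limma-voom, which called 7086 and 5858 of all 14605 genes where edgeR called 5091. Of the other thioredoxin and peroxiredoxin genes, 7 were called, with 11 by DESeq2 and without the block. Of the glutathione genes 9 were called, with 5 under library totals alone, and of the superoxide and peroxide enzymes 3, with 1 under the stricter filter. That filter asked for at least 50 counts in 3 libraries. Sod3, with 12, 6 and 6 counts in positive and 172, 34 and 27 in negative replicates 1, 2 and 3, did not meet it. Sod3 was thus not tested there, while Cat was tested and missed the threshold. Without replicate 3 and with replicates 2 and 3 summed, edgeR called 0 genes of any list. Among the 10 genes, depth limits Nqo1 most, with 51 counts in its lowest library, apart from the 0 of Txnrd1, and some listed genes had fewer, such as Sod3 with 6 and Me1 with 7 (Me1 named after its values were seen).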
